A study of Oreolalax rhodostigmatus with 13 samples.

Results

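The unigenes described here are assembled transcripts whose best protein hits are sarcomere proteins of the frog Xenopus tropicalis. They are nebulin (Cluster-29057.104103), troponin I of slow skeletal muscle (Cluster-29057.38160, slow troponin I below) and myomesin-2 (Cluster-29057.96830). They were taken by identifier from the deposited expression table, as 3 of its 249088 unigenes, to describe striated muscle RNA in tadpoles whose tissues were pooled. The names of nebulin and slow troponin I come from the annotation of the assembly. Only part of that annotation was held here. The name of myomesin-2 was taken from a list that the study drew up for a rise with light in these same libraries. Its values are therefore given as a description, with no test.

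The data are poly-A RNA-seq libraries of 13 single tadpoles of Oreolalax rhodostigmatus, a frog whose transparent larvae live in caves and darken in light, all at Gosner stage 25. Control tadpoles (4 animals) came from the dark zone of a cave and were killed at once, without light. Short-term exposed tadpoles (6 animals) spent 4 h in light. Long-term exposed tadpoles (3 animals) spent 30 h in light. Both exposed groups were kept in a cage at the cave entrance, where light reaches the water. A lamp was used at night. By the study's times, collection was in the early morning, so only the Long-term exposed group met the lamp and a night in the cage. No genetic change was involved. Light, the lamp at night, time of day and keeping in the cage cannot be told apart in this design. By the study's methods, eyeballs, liver, dorsal skin and a piece of tail of each animal went into a single tube, while the sample labels list skin, eyeball and liver only. No value therefore belongs to a single tissue, and none can be assigned to the tail.

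In striated muscle, thin actin filaments and thick myosin filaments slide past each other within repeating units, the sarcomeres. Nebulin is a giant protein that runs along the thin filament. Troponin I is the inhibitory subunit of the calcium switch on that filament, and its slow form is typical of slow fibres. Myomesins cross-link the thick filaments in the middle of the sarcomere, at the M-band. Much of a tadpole's tail is swimming muscle, and eyes carry muscles too, so these transcripts are known as markers of muscle tissue.

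Values are FPKM, fragments scaled to transcript length and to the mapped reads of the library, as the authors computed them. Each library's FPKM summed to between 983190 and 1070969. The number of unigenes above 0 was 112990 to 134725 in Control libraries, 91929 to 136138 in Short-term exposed libraries and 140196 to 147363 in Long-term exposed libraries, so that every Long-term exposed library showed more unigenes than any other. The table keeps no read counts, so the counting error of a low value is unknown and an exact 0 is given as listed. A unigene was tested where it reached 0.3 FPKM in at least 3 libraries. That left 147192 unigenes, among them 2 of the 3 sarcomere unigenes: myomesin-2 reached 0.3 FPKM in 1 library only.

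Nebulin was the only one of the 3 that was above 0 in every library. In the Control group it stood at 10.89, 6.48, 7.26 and 6.02 FPKM. In the Short-term exposed group it stood at 3.9, 7.15, 4.42, 7.83, 7.1 and 9.17 FPKM. The Long-term exposed group had 9.25, 10.88 and 20.82 FPKM. The highest value, in Long-term exposed replicate 3, was 5.34 times the lowest, in Short-term exposed replicate 1, and it stood far above the other 12 libraries. Control replicate 1 came second, a step above Long-term exposed replicate 2, so the Long-term exposed and Control ranges overlapped. All 3 Long-term exposed libraries lay above all 6 Short-term exposed libraries, by a narrow margin between 9.25 FPKM in Long-term exposed replicate 1 and 9.17 FPKM in Short-term exposed replicate 6.

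**Figure D1:**
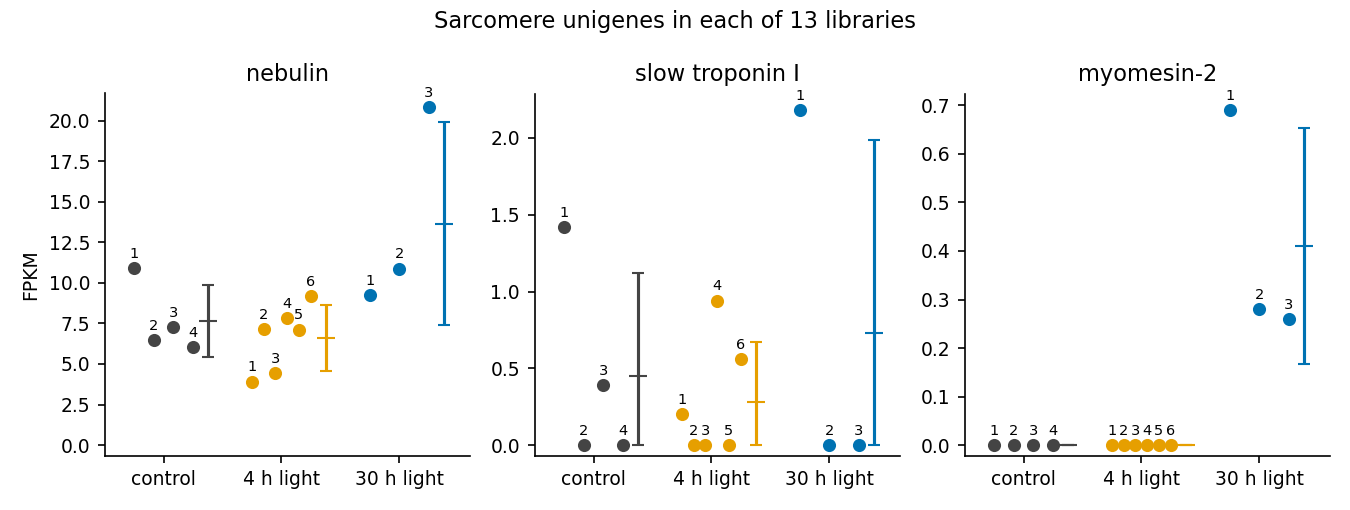
FPKM of nebulin, slow troponin I and myomesin-2 (vertical axes, each on its own scale) in Control, 4 h light and 30 h light tadpoles. Points are single libraries marked with their replicate number, and bars give the mean and SD, with the lower arm cut at 0. Nebulin is highest in 30 h replicate 3 at 20.82 FPKM, slow troponin I is at 0 in 7 of 13 libraries, and myomesin-2 is above 0 in the 30 h libraries only.

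By group, nebulin averaged 7.66 ± 2.21 FPKM in Control tadpoles (SD, n = 4), 6.60 ± 2.04 FPKM in Short-term exposed tadpoles (SD, n = 6) and 13.7 ± 6.26 FPKM in Long-term exposed tadpoles (SD, n = 3). The first pair of means differed by less than either SD. The SD of nebulin after removal of group means was 0.48 on the log2 scale. Over all unigenes tested the median SD was 1.18, and 4.68% of them varied less. Only 26.1% of the unigenes tested were above 0 in every library, and no base of like abundance was used. The low SD is therefore not shown to be particular to nebulin. Nebulin ranked above at least 92.2% of all 249088 unigenes in every library, a base that includes the many unigenes at 0 in that library.

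No comparison of nebulin passed the adjusted threshold of 0.05 (limma, log2(FPKM + 0.1), Benjamini-Hochberg over 147192 unigenes). For Long-term exposed against Control, the difference was 0.77 (SE 0.44, 95% interval -0.17 to 1.71, adjusted p = 0.533 in limma), a 1.71-fold difference with an interval of 0.89 to 3.28. The exact two-sided permutation test gave p = 0.114, where 0.0286 is the smallest value that 3 against 4 libraries allow. Without Long-term exposed replicate 3, the difference was 0.42. The median over all unigenes tested was itself 0.20 in this comparison.

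For Short-term exposed against Control, the nebulin difference was -0.24 (SE 0.37, 95% interval -1.03 to 0.56, adjusted p = 0.903 in limma), and the exact permutation p was 0.438. The median over all unigenes was -0.10. The interval does not include a 2-fold change in the upward direction and just reaches one in the downward direction.

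For Long-term exposed against Short-term exposed, the difference in nebulin was 1.01 (SE 0.41, 95% interval 0.14 to 1.88), which is 2.01-fold. Its p was 0.0259 before and 0.209 after adjustment in limma, and 0.0238 in the exact two-sided permutation test, whose smallest possible value here is 0.0119. Taken alone, the comparison thus had a p under 0.05 in both tests, but it did not pass after adjustment over all unigenes. The median difference over all unigenes was 0.23. Over all 3 groups, the F test of limma gave nebulin a p of 0.0748 before and 0.341 after adjustment. Without Long-term exposed replicate 3 the nebulin difference from Short-term exposed tadpoles was 0.66, with an unadjusted p of 0.178 in limma. Among all unigenes tested, 7.0% had every Long-term exposed library above every Short-term exposed library, as nebulin did, and 7.71% had every Long-term exposed library above every Control library, as nebulin did not.

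**Figure D2:**
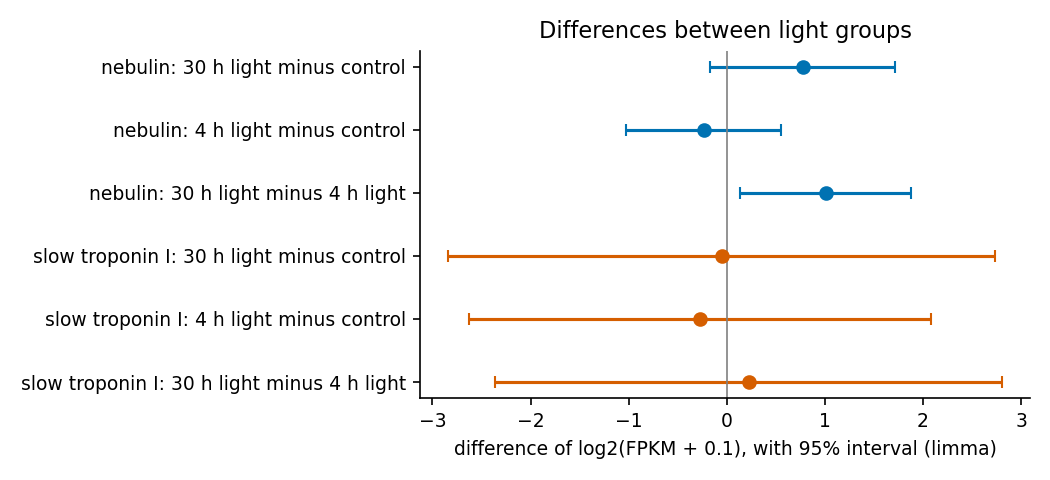
Differences of log2(FPKM + 0.1) between light groups for nebulin (blue) and slow troponin I (orange), horizontal axis in log2 units; points are limma estimates and bars their 95% intervals. Only the nebulin interval for 30 h against 4 h of light, 0.14 to 1.88, lies clear of 0, and it is not adjusted for the number of unigenes.

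Slow troponin I was low and patchy. It was listed at 0 in 7 of 13 libraries. The Control values were 1.42, 0, 0.39 and 0 FPKM. The Short-term exposed values were 0.2, 0, 0, 0.94, 0 and 0.56 FPKM. In the Long-term exposed group, replicate 1 had the highest value of all, 2.18 FPKM, while replicates 2 and 3 were listed at 0. Each group therefore held libraries listed at 0 and libraries listed above 0, and the groups overlapped fully. Group means were 0.453 ± 0.671 FPKM in Control (SD, n = 4), 0.283 ± 0.389 FPKM in Short-term exposed (SD, n = 6) and 0.727 ± 1.26 FPKM in Long-term exposed tadpoles (SD, n = 3), with each SD larger than its mean.

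No difference in slow troponin I between groups was detectable. Long-term exposed against Control gave -0.05 (SE 1.31, adjusted p = 1.0 in limma; exact permutation p = 1.0), on the log2(FPKM + 0.1) scale. Short-term exposed against Control gave -0.27 (SE 1.10, adjusted p = 0.967 in limma; exact permutation p = 0.762). Long-term against Short-term exposed gave 0.22 (SE 1.21, adjusted p = 0.946 in limma; exact permutation p = 0.940). The intervals were wide, from 0.14-fold to 6.68-fold for Long-term exposed against Control, so large changes in either direction lie within them. The sign of each comparison rested on single libraries: without Control replicate 1 the first 2 differences were 0.74 and 0.52, and without Long-term exposed replicate 1 the last was -1.28. The within-group SD of slow troponin I was 1.90 on the log2 scale, larger than that of 88.6% of the unigenes tested.

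Myomesin-2 was listed at 0 in all 4 Control and all 6 Short-term exposed libraries. It was above 0 in the 3 Long-term exposed libraries, at 0.69, 0.28 and 0.26 FPKM, with a mean of 0.41 ± 0.24 FPKM (SD, n = 3). The highest of these was in replicate 1, the library with most slow troponin I, and the lowest was in replicate 3, the library with most nebulin. A fold change is not given, since the other groups were at 0 throughout. The same pattern, above 0 in all Long-term exposed libraries and at 0 in the other 10, was shown by 691 of the 249088 unigenes, and 332 of these stayed below 1 FPKM in every library. The Long-term exposed libraries also showed the most unigenes above 0, and by the study's read totals they were the deepest. The part of depth in the myomesin-2 pattern was not tested.

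The 3 unigenes did not rank the libraries alike. Over the 13 libraries, nebulin and slow troponin I had a Pearson r of 0.14 (permutation p = 0.657, 100000 permutations) and a Spearman rho of 0.37 (permutation p = 0.213) on the log2(FPKM + 0.1) scale. This was 1 of 25 relations computed, and the p of r adjusted over them was 0.809. With group means removed r was 0.15. Within the 6 Short-term exposed libraries it was 0.39 (exact permutation p = 0.442), and the other groups were too small for a correlation of their own. The 2 libraries farthest from the nebulin median were Long-term exposed replicate 3 and Short-term exposed replicate 1, and r was 0.56 without them. A relation between the 2 transcripts was thus not detectable. Without Long-term exposed replicate 3 alone, which paired the highest nebulin with slow troponin I at 0, r was 0.44 (permutation p = 0.150).

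**Figure D3:**
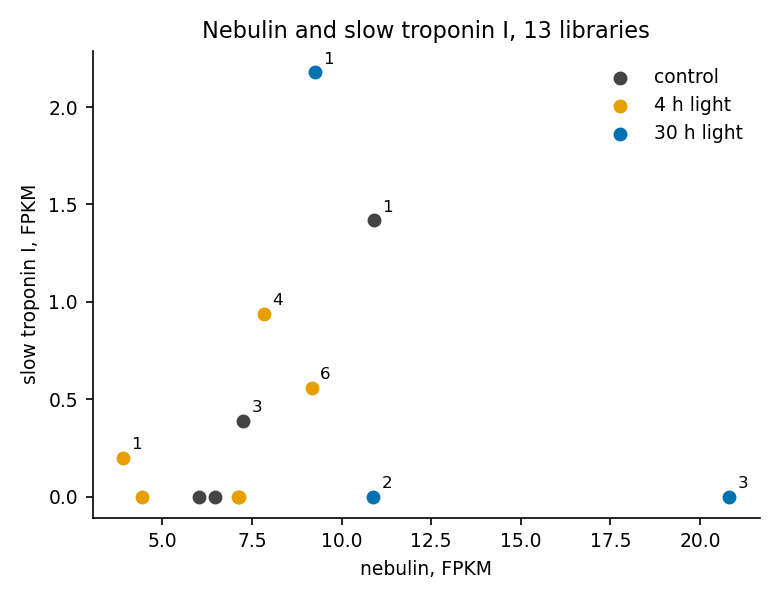
Slow troponin I against nebulin, both in FPKM, in 13 libraries coloured by group; numbers are replicates. Slow troponin I is above 0 in libraries with nebulin between 3.9 and 10.89 FPKM, and the library with 20.82 FPKM of nebulin lies on the horizontal axis.

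Other unigenes with names of striated muscle genes were set beside the members. The list held 14 unigenes, of which 12 were tested. In the annotation it drew on XIRP1, which binds actin at muscle attachment sites, and a unigene like MYLK3, the kinase of the cardiac myosin light chain in mammals. The names of the other 10 unigenes were taken from the study's table of analysed unigenes, as the annotation names held here lacked them. Most were picked there for a change with light or a correlation with pigment genes in these libraries. Their direction is therefore not independent evidence. They are MURC, a caveolar coat protein of muscle, CPT1B, which carries fatty acids into muscle mitochondria, dystrophin, which ties the cell membrane to actin, telethonin, which caps titin at the Z-disc, titin, the elastic spring of the sarcomere, ASB5, an adaptor of ubiquitin ligases, and DMPK, the kinase of the myotonic dystrophy locus in humans.

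In Long-term exposed against Control, 2 of the 12 tested muscle unigenes rose, and none fell, at an adjusted p under 0.05 in limma. All 12 differences were positive. Of all unigenes tested, 0.975% rose and 0.399% fell. The median difference of the 12 was 2.24, against 0.20 over all unigenes tested. It was 2.41 for the 9 tested unigenes from the study's table of analysed unigenes, which gave both calls, and 0.93 for the 3 named in the annotation, which gave none. The risers were DMPK (Cluster-29057.145325) and an ASB5 unigene (Cluster-29057.63530). DMPK stood at 0.93, 1.43 and 1.99 FPKM in Long-term exposed tadpoles, against 0.45, 0, 0 and 0 FPKM in Control tadpoles. The groups did not overlap, and the difference was 3.28 (SE 0.73, adjusted p = 0.0374 in limma). ASB5 stood at 0.82, 0.73 and 1.2 FPKM in Long-term exposed tadpoles, against 0.15, 0, 0 and 0 FPKM in Control tadpoles. Its difference was 2.99 (SE 0.57, adjusted p = 0.0145 in limma). Outside the Long-term exposed group, ASB5 reached 0.3 FPKM in no library and DMPK in Control replicate 1 only, so both were tested only because they were high in that group, and their calls are no support for a rise. The count of 2 fell to 0 without any 1 of the Long-term exposed libraries. Over all unigenes tested, the rises also fell, from 1435 to 374, 247 and 314 without replicate 1, 2 and 3.

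In Short-term exposed against Control, none of the 12 muscle unigenes passed, nor did any reach an unadjusted p under 0.05 in limma; no alternative fit called any. Over all unigenes, 0.0408% rose and 0.0401% fell. The median of the 12 was -0.12, beside -0.10 over all unigenes.

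In Long-term exposed against Short-term exposed, 8 of the 12 rose and none fell, against 2.09% of all unigenes that rose and 0.957% that fell. They were MYLK3-like, both MURC unigenes, both CPT1B unigenes, telethonin-like, ASB5 and DMPK. Of the 12 differences, 11 were positive. The median of the 12 was 2.46, beside 0.23 over all. It was 2.52 for the 9 from the table of analysed unigenes, 7 of which rose, and 0.51 for the 3 named in the annotation, 1 of which rose. MYLK3-like (Cluster-29057.12260), which the study had not listed for light, stood at 0.91, 0.84 and 1.44 FPKM in Long-term exposed libraries, against 0.09, 0.13, 0, 0.2, 0 and 0 FPKM in Short-term exposed libraries. The ranges did not overlap, and the difference was 2.89 (SE 0.68, adjusted p = 0.0326 in limma). Like DMPK, it reached 0.3 FPKM outside the Long-term exposed group in Control replicate 1 only, so it too was tested only because it was high there. Against Control, the MYLK3-like difference of 2.14 did not pass (adjusted p = 0.223 in limma), with Control values of 0.52, 0.16, 0.17 and 0 FPKM. Leaving out Long-term exposed replicate 1, 2 or 3 cut the count of 8 to 1, 0 and 0. In the same fits the rises over all unigenes tested fell from 3080 to 599, 221 and 254. The Long-term and Short-term exposed libraries also differed in how many unigenes they showed.

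Some of the listed muscle unigenes that rose were more abundant. The MURC unigene Cluster-29057.123178 had 48.42, 54.4 and 73.37 FPKM in Long-term exposed tadpoles, against 5.7, 8.93, 26.08, 24.32, 3.57 and 14.23 FPKM in Short-term exposed tadpoles. The ranges were apart, and the difference was 2.40 (SE 0.56, adjusted p = 0.0328 in limma). The CPT1B unigene Cluster-29057.85005 had 17.06, 17.47 and 25.14 FPKM in Long-term exposed tadpoles, against 3.45, 2.25, 4.51, 9.88, 3.34 and 1.12 FPKM in Short-term exposed tadpoles. Against Control neither passed (adjusted p = 0.153 for this MURC unigene and 0.0572 for this CPT1B unigene in limma). The CPT1B difference from Short-term exposed tadpoles was 2.52 (SE 0.54, interval 1.38 to 3.67, adjusted p = 0.0208 in limma). The estimate was larger than the 1.01 of nebulin, but the intervals overlapped, as that of nebulin was 0.14 to 1.88. This MURC and this CPT1B unigene are from the study's table of analysed unigenes, so the size of their differences is not independent evidence. Whether these 2 unigenes differ from nebulin in response was not tested. Both were higher than nebulin in FPKM in the Long-term exposed group, where the mean was 58.7 FPKM for this MURC unigene, 19.9 FPKM for this CPT1B unigene and 13.7 FPKM for nebulin.

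The titin and dystrophin unigenes were low and did not pass in any comparison. Titin (Cluster-29057.163251) had 0.18, 0.75 and 0.79 FPKM in Long-term exposed libraries, against 0.09, 0, 0 and 0 FPKM in Control libraries (difference 2.34, adjusted p = 0.158 in limma). Dystrophin (Cluster-29057.80441) had 2.02, 1.44 and 1.69 FPKM in Long-term exposed libraries, against 0.4, 0.18, 0.62 and 0.45 FPKM in Control libraries (difference 1.89, adjusted p = 0.236 in limma). In both the Long-term exposed libraries lay above all Control libraries, as in 7.71% of all unigenes tested. Outside the Long-term exposed group, titin reached 0.3 FPKM in Short-term exposed replicate 3 only, at 0.34 FPKM. Titin was thus tested only because it was high in the Long-term exposed group, so its separation from Control is no support for a rise. The 0.34 FPKM lay above the 0.18 FPKM of Long-term exposed replicate 1. The best hit of titin was mammalian (Condylura cristata).

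XIRP1 differed in pattern from most of the list. Its tested unigenes were not from the study's table of analysed unigenes, and they passed the filter without the Long-term exposed group. The other tested unigenes of the list were from that table or, like MYLK3-like, passed only because they were high in that group. The 2 tested XIRP1 unigenes (Cluster-29057.106208 and Cluster-29057.118619) peaked in Short-term exposed replicate 4, at 10.08 and 31.67 FPKM. The second was lowest in Short-term exposed replicate 5, at 0.2 FPKM. That library showed the fewest unigenes above 0 of all, 91929. Long-term exposed values of 6.84, 7.08 and 15.15 FPKM for the second lay within the Short-term exposed range, with means of 9.69 FPKM in Long-term exposed and 12.4 FPKM in Short-term exposed tadpoles. Neither unigene passed in any comparison. One more XIRP1 unigene, Cluster-29057.106209, was listed at 0 in all 13 libraries. Because the assembly can split a gene or merge copies, such unigenes of the same name cannot be told apart as isoforms, paralogs or fragments.

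**Figure D4:**
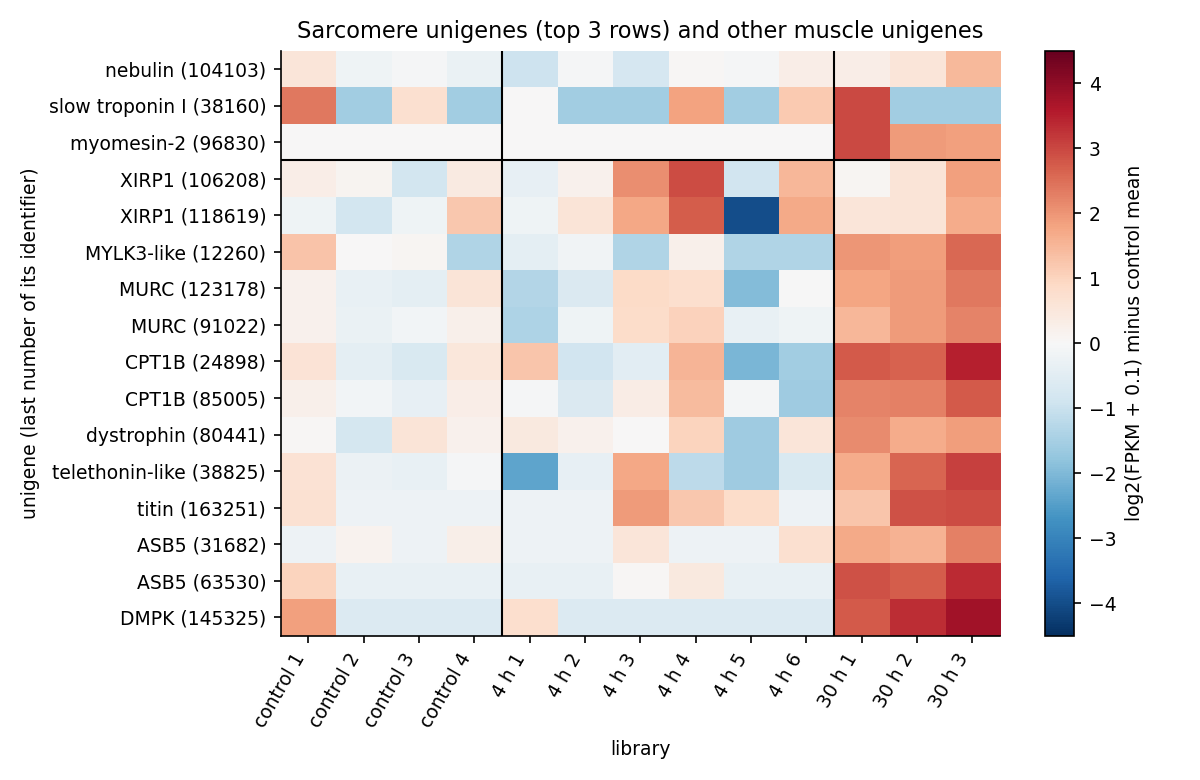
log2(FPKM + 0.1) minus the Control mean (colour, log2 units) for the 3 sarcomere unigenes (top rows) and 13 other muscle unigenes, by library; the XIRP1 unigene at 0 throughout is left out. Most rows of the list are high in all 3 of the 30 h libraries, where nebulin is raised chiefly in replicate 3 and slow troponin I in replicate 1; XIRP1 peaks in 4 h replicate 4.

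The library with most nebulin was also the library in which most of the list peaked: 9 of the 12 tested muscle unigenes were highest in Long-term exposed replicate 3, and 10 in any Long-term exposed library. Of all 147192 unigenes tested, 10.8% peaked in Long-term exposed replicate 3, and 45531 peaked in any Long-term exposed library. Of these 45531, 34.9% peaked in replicate 3, 42.4% in replicate 2 and 22.6% in replicate 1. Most of the list comes from the study's table of analysed unigenes. Titin, ASB5 (Cluster-29057.63530), DMPK and MYLK3-like passed the filter only because they were high in the Long-term exposed group. A peak in that group was thus favoured by the filter for these unigenes. The counts of the list are therefore a description and no independent evidence. Across the 13 libraries nebulin correlated positively with all 12, with r between 0.17 and 0.75 and a median of 0.58, given as a description since the points share the light groups. Once group means were removed, r lay between -0.12 and 0.52 with a median of 0.19. Slow troponin I correlated with them at r between -0.15 and 0.36, with a median of 0.13, and with group means removed the median was 0.17. Each member was also correlated without the 2 libraries farthest from its own median. The median r was then 0.29 for nebulin, with 10 of 12 positive, and -0.16 for slow troponin I, with 3 of 12 positive. Within the 6 Short-term exposed libraries the median r was 0.03 for nebulin and 0.39 for slow troponin I. Whether the 2 members differ in how they follow the list was not tested.

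Control replicate 1, second in nebulin and in slow troponin I, stood above the other Control libraries in some muscle unigenes but not in others. Control replicate 4 was above it for both MURC unigenes, both tested XIRP1 unigenes and the CPT1B unigene Cluster-29057.85005. Control replicate 3 was above it for dystrophin. Control replicate 1 was highest of its group for telethonin-like and the other CPT1B unigene. It was also the only Control library above 0 for titin, ASB5 Cluster-29057.63530 and DMPK, all low. It had the most MYLK3-like of its group at 0.52 FPKM. It showed 134725 unigenes above 0, the most in its group. Without it, the nebulin difference between Long-term exposed and Control was 0.95, with an adjusted p of 0.453 in limma.

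The named unigenes most like nebulin over the 13 libraries, by Pearson r of log2(FPKM + 0.1), included only MYLK3-like from the muscle list. Few sarcomere genes had a name held here, so no conclusion is drawn from the lack of others. Among 298 tested unigenes named in the annotation, the highest were neurabin-1, which binds actin (r = 0.78), the growth factor receptor FGFR2 (r = 0.78), MYLK3-like (r = 0.74), a variant of the receptor MET (r = 0.74) and a membrane-associated phosphatidylinositol transfer protein (r = 0.71). Among 733 in the table of analysed unigenes they were collagen alpha-1(XVI) at r = 0.85, apolipoprotein L6-like at r = 0.83 and the transmembrane glycoprotein NMB at r = 0.83. Of all 147191 other unigenes tested, 234, or 0.159%, had an r of at least 0.8 with nebulin, so these names are a small sample. For slow troponin I the highest in the annotation were a VEGF receptor 1-like unigene at r = 0.73, the kinase ATM at r = 0.58, the receptor phosphatase PTPRC at r = 0.58, SLAIN1 at r = 0.56 and the ribosomal protein S6 kinase at r = 0.50. In the other table they were a pair of MITF transcripts at r = 0.77 and r = 0.72, and FGF23 at r = 0.47. The VEGF receptor unigene was above 0 in 3 libraries only, and the MITF transcripts in 5 and 6. Of those most like nebulin, the MET variant was above 0 in 5 libraries, apolipoprotein L6-like in 7 and FGFR2 in 8. Zeros weigh heavily in these values. The best hits of the FGFR2, MET, VEGF receptor 1-like, ATM and S6 kinase unigenes were mammalian proteins. Whether these unigenes are the frog's own copies of those genes was not tested.

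Some markers of the other pooled tissues differed between Long-term exposed and Control tadpoles. Albumin (Cluster-29057.101516), the main plasma protein made by liver, stood at 8060.3, 9352.16 and 11981.82 FPKM in Long-term exposed tadpoles, against 1283.02, 2175.9, 2056.85 and 852.25 FPKM in Control tadpoles (difference 2.70, SE 0.51, adjusted p = 0.0130 in limma). Of the 5 liver unigenes, 3 rose, albumin and a pair for fibrinogen alpha, and 1 fell, CYP2A6 (difference -4.15, adjusted p = 0.0278 in limma), while CYP2C8 did not pass (difference 0.10). Of all unigenes tested in this comparison, 0.975% rose and 0.399% fell. Crystallin gamma E, a structural protein of the lens, rose by 3.84 (adjusted p = 0.0173 in limma), at 7.83, 6.77 and 7.33 FPKM in Long-term exposed tadpoles, against 1.04, 0.98, 0 and 0.48 FPKM in Control tadpoles. Neither unigene of desmoglein-2, an adhesion protein of epithelia, passed in any comparison. All 4 of these unigenes that rose are named in the study's table of analysed unigenes, so their direction is not independent evidence, and none of the 4 tissue markers named in the annotation, the CYP2A6, CYP2C8 and desmoglein-2 unigenes, rose. The share of each tissue in a tube was not measured. In pooled tissue, more cells of a type and more RNA per cell cannot be told apart.

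**Figure D5:**
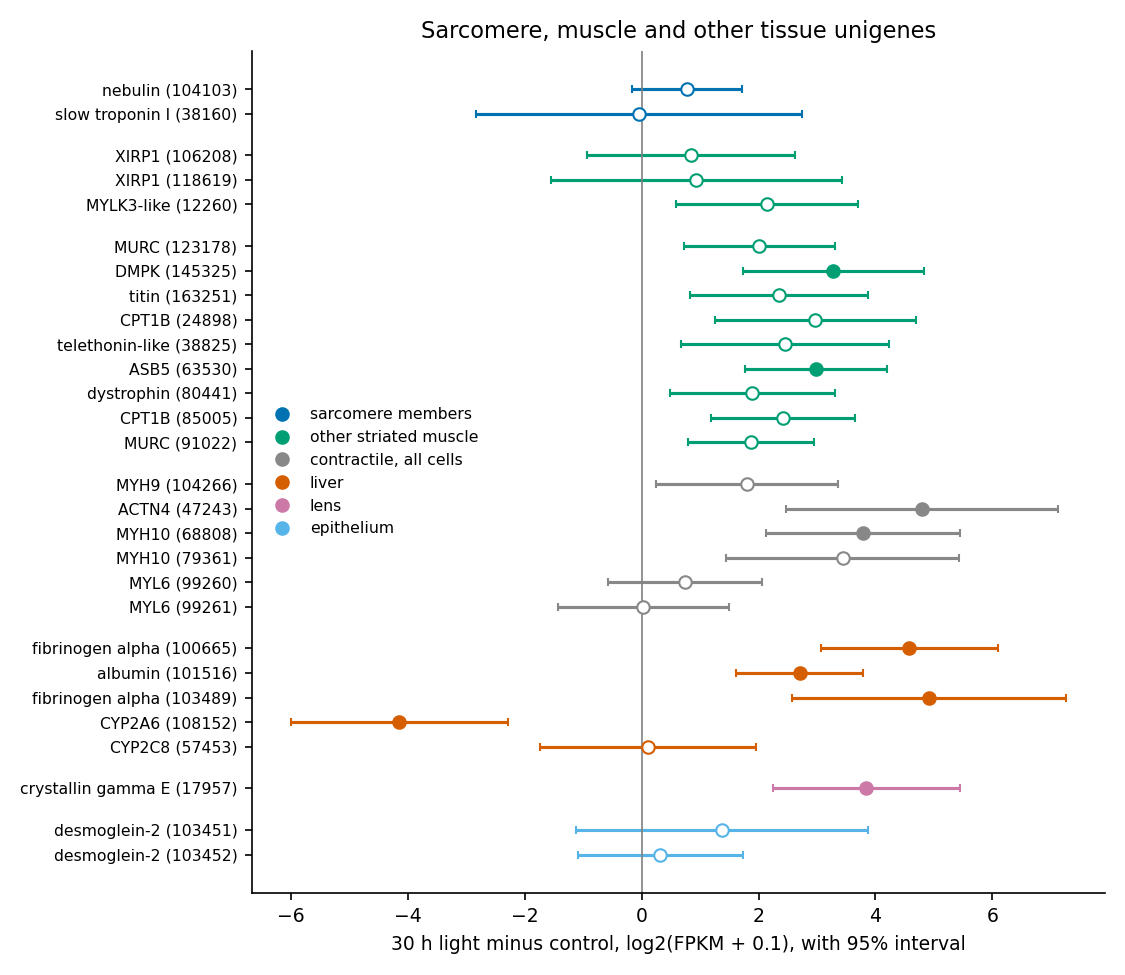
Difference between 30 h light and Control in log2(FPKM + 0.1), with 95% intervals (limma), for tested sarcomere, muscle, contractile, liver, lens and epithelial unigenes; filled points passed an adjusted p under 0.05. Nebulin at 0.77 and slow troponin I at -0.05 are open, DMPK, ASB5, ACTN4, an MYH10 unigene, albumin, fibrinogen alpha and crystallin gamma E are filled and to the right of 0, and CYP2A6 is filled and to the left.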

How the data were processed

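Total RNA of each tadpole's pooled tissues was made into poly-A libraries and sequenced in pairs. The authors removed adapter, poly-N and low-quality reads, assembled all libraries together with Trinity, and deposited FPKM per unigene, scaled to unigene length and library size. The aligner and the counter stay unnamed, not given in the sources used here. Names are best protein hits from the study's annotation (446 names held) and its table of analysed unigenes (1146 names held). The annotation names held are only a part of those the paper reports, so muscle genes without a held name are missing from the lists. No held name contained myosin heavy chain. No columns of the authors' own comparisons were used, and sequences of the unigenes were not analysed here.

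All 13 columns matched a sample by name. FPKM was taken to log2(FPKM + 0.1); unigenes at or above 0.3 FPKM in 3 or more libraries were fitted with limma 3.58.1 in R 4.3.3 (3 groups, trend, moderated tests, Benjamini-Hochberg adjustment). Differences on this scale understate changes of low unigenes. Single values were also tested by exact permutation of the absolute difference in means (SciPy 1.17.1), and correlations with 100000 permutations. Plots used matplotlib 3.10.9, tables pandas 2.3.3 and numpy 2.4.6 (Python 3.11.15). Tested on data simulated for Long-term exposed against Control over 147192 unigenes, the fit recovered 0 of 50 changes of 2-fold, 6 of 50 of 4-fold, 27 of 50 of 8-fold and 39 of 50 of 16-fold. The changes were placed only in more abundant unigenes, each with its own spread. These rates therefore do not describe the low unigenes, or nebulin in particular.

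The members and lists were chosen with earlier results of these data known. Named unigenes were the 3 members, every unigene of the lists, and the 5 annotated and 3 analysed unigenes with the highest r with nebulin and with slow troponin I. Each animal gave 1 library. Alternatives were other pseudocounts, filters and scaling, untransformed values, 2-group fits, a replicate block and leaving out libraries; those for the muscle list and for myomesin-2 were chosen after seeing the data.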

Additional observations from a re-analysis of the deposited data

Results flagged for a closer look

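In 57 sets of Control or Short-term exposed values of the named unigenes, 10 had a highest library set apart from the rest of its group by Dixon's criterion at 95%. There chance gives at most about 1 in 20 for normally distributed values without ties, which FPKM near 0 need not be. In 7 of the 10 the library was the only one of its group above 0, which meets the criterion whatever its value, so these 7 are given as values only. None was nebulin or slow troponin I. Among muscle unigenes, Control replicate 1 stood alone above 0 for titin at 0.09 FPKM, for ASB5 (Cluster-29057.63530) at 0.15 FPKM and for DMPK at 0.45 FPKM. Short-term exposed replicate 3 was set apart for telethonin-like, at 1.62 FPKM beside 0.3 FPKM in the next library, and Short-term exposed replicate 1 for DMPK, at 0.16 FPKM with the other 5 at 0. Among contractile proteins of all cells, Control replicate 1 was set apart for both MYH10 unigenes, at 0.12 and 0.61 FPKM with the others at 0, Control replicate 4 for MYL6 at 7.46 FPKM, and Short-term exposed replicate 4 for MYH10 at 0.69 FPKM. For CYP2C8, Short-term exposed replicate 3 stood alone above 0, at 0.32 FPKM. Of the 10, 5 were in Control replicate 1, all of them with the other Control libraries at 0.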

How the results depend on the processing

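The 3 comparisons of nebulin kept their direction and stayed short of the threshold in all 22 alternatives each, with adjusted p between 0.335 and 0.830 for Long-term exposed against Control, 0.841 and 0.991 for Short-term exposed against Control, and 0.144 and 0.616 for Long-term against Short-term exposed. Leaving out single libraries gave nebulin differences of 0.42 to 1.00, -0.34 to -0.06 and 0.66 to 1.24 in these comparisons. No slow troponin I comparison passed under any alternative, but signs turned. For Long-term exposed against Control, median-of-ratios scaling gave 0.050, a pseudocount of 1 gave 0.12, a replicate block gave 0.046 and untransformed values gave 0.27 FPKM. For Long-term against Short-term exposed, a pseudocount of 0.01 gave -0.21, and leaving out replicate 1 of both groups gave -1.22. Leaving out single libraries gave -1.55 to 0.74 for Long-term exposed against Control, -0.79 to 0.52 for Short-term exposed against Control and -1.28 to 0.97 for Long-term against Short-term exposed. The correlation of nebulin with slow troponin I was 0.04 to 0.44 over left-out libraries and did not pass in any of 18 alternatives. Myomesin-2 averaged 0.27 to 0.49 FPKM over left-out Long-term exposed libraries.

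Muscle unigenes called higher numbered 2 for Long-term exposed against Control. They numbered 1 with a minimum of 1 FPKM, 5 with median-of-ratios scaling, 4 with only the 2 groups, 0 with a pseudocount of 0.01, 4 with a pseudocount of 1, 0 with the replicate block, 0 without replicate 1 of both exposed groups, 8 untransformed, and 0 to 3 over left-out libraries. For Long-term against Short-term exposed, 8 became 5 with a minimum of 1 FPKM, 3 with only the 2 groups, 5 with a pseudocount of 0.01, 0 with the replicate block, 5 without replicate 1 of both exposed groups, and 0 to 8 over left-out libraries. Over all unigenes, 2023 were called for Long-term exposed against Control, 119 for Short-term exposed against Control and 4489 for Long-term against Short-term exposed. In that order of comparisons, untransformed values gave 3434, 20 and 6894, the replicate block 680, 3 and 371, leaving out replicate 1 of both exposed groups 604, 4951 and 7325, and left-out libraries 418 to 2202, 70 to 3144 and 513 to 5640. The 3144 came without Short-term exposed replicate 1. Median-of-ratios scaling gave 199 for Short-term exposed against Control. For Long-term against Short-term exposed a pseudocount of 0.01 gave 2746 and only the 2 groups 2977. A minimum of 1 FPKM gave 3738 there, of 69821 unigenes tested. For Long-term exposed against Control, a minimum of 1 FPKM gave 1607, median-of-ratios scaling 2197 and only the 2 groups 2405. Pseudocounts of 0.01 and 1 gave 1407 and 2854 in that comparison. The replicate numbers did not pair the samples: deviations of 10 same-numbered pairs correlated at -0.11 to 0.02, so a call lost under the block is no sign of a weaker effect. The causes of these shifts were not tested. Read depth cannot be recovered from FPKM, which leaves the error of slow troponin I, myomesin-2 and other low values unknown.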

Other observations

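Contractile proteins that all cells use gave mixed results. Of 6 tested unigenes, 2 rose in Long-term exposed against Control, where 0.975% of all unigenes tested rose and 0.399% fell. They were the nonmuscle actin cross-linker ACTN4 (Cluster-29057.47243) and the nonmuscle myosin MYH10 (Cluster-29057.68808), both from the study's table of analysed unigenes. Both passed the filter only because they were high in the Long-term exposed group, so their calls are no support for a rise. None fell, and neither MYL6 unigene, named in the annotation, passed. ACTN4 stood at 2.7, 3.06 and 2.29 FPKM in Long-term exposed libraries and was listed at 0 in all 4 Control libraries (adjusted p = 0.0431 in limma). MYH10 stood at 1.19, 1.7 and 1.91 FPKM in Long-term exposed libraries, against 0.12, 0, 0 and 0 FPKM in Control libraries (difference 3.78, adjusted p = 0.0248 in limma). The most abundant of the 6, MYL6 (Cluster-29057.99260), a light chain of nonmuscle myosin which the study had not listed for light, had 5.33, 7.42 and 7.34 FPKM in Long-term exposed libraries, against 3.45, 3.23, 2.81 and 7.46 FPKM in Control libraries. Its groups overlapped, and the difference of 0.74 (adjusted p = 0.684 in limma) was close to the 0.77 of nebulin. A cytoplasmic actin unigene, ACTG1 (Cluster-29057.169913), was at 10.52 and 9.88 FPKM in Long-term exposed replicates 2 and 3 and listed at 0 in the other 11 libraries.

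Of 147192 unigenes tested, 38348 (26.1%) were above 0 in every library, as nebulin was. Besides slow troponin I, 6 unigenes of the whole table were above 0 in the same 6 libraries and at 0 in the other 7.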
